A study of Homo sapiens with 6 samples.

Results

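OTX1, OTX2, SIX3, HESX1, LHX2, GBX2, EN1, EN2, PAX2 and PAX8 are 10 patterning transcription factor genes of the forebrain, midbrain and midbrain-hindbrain boundary, and they were chosen by symbol from the 27672 genes of the expression table. They were followed between undifferentiated human embryonic stem cells and the neuromesodermal progenitor-like (NMP-L) cells made from them, to ask which axial identity the transcripts of day 3 cells carried. Each condition had 3 replicates, whose polyadenylated RNA was read from a single end (76 bp). All 6 libraries came from H9, a single established human embryonic stem cell line. The day 0 cells (hESC) were untreated and, per the labels, had been kept on fibronectin with bFGF at 30 ng/ml and the BMP antagonist Noggin at 10 ng/ml. The day 3 cells (NMP-L) were the same line after bFGF (20 ng/ml) and CHIR99021 (3 µM) had been given for 3 days. The paper's methods for this differentiation also add Noggin and a TGFβ inhibitor over a window that includes day 3. Whether these libraries had them is not known from the sample values used here. CHIR99021 inhibits GSK3 and so activates Wnt signalling. Neither condition carried a transgene or deletion according to the labels, and the NMP-L libraries were bulk RNA of a culture, so fewer cells of a type and less RNA per cell cannot be told apart in any value below.

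The early neural plate is divided along its length by transcription factors that hold each other in check. OTX2 and its relative OTX1 are needed for forebrain and midbrain, GBX2 for the anterior hindbrain, and where the territories of OTX2 and GBX2 meet, the isthmus forms, a signalling centre at the midbrain-hindbrain boundary that is marked by FGF8, WNT1, EN1, EN2, PAX2, PAX5 and PAX8. SIX3, HESX1 and LHX2 act further forward, in the forebrain, the eye field and the pituitary primordium. Before the neural plate exists, OTX2 is also active in the epiblast and in pluripotent cells, and Gbx2 is active in the caudal epiblast of the embryo, where neuromesodermal progenitors reside. Wnt signalling shifts neural tissue towards caudal identities.

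Library totals lay between 19454543 and 23036426 expected counts, so that 3 counts, used here as the detection floor, corresponded to between 0.130 and 0.154 CPM (the count divided by the library total and scaled to 1000000). The identity of the samples was checked against defining markers. T (brachyury), the mesodermal one of the NMP marker pair, had 0, 0 and 2 counts in hESCs and 537, 293 and 629 in NMP-L cells, and the neural one, SOX2, differed by 0.06 on the log2 scale (SE 0.08, adjusted p = 0.53 by edgeR's quasi-likelihood test). SOX2 is also on the list of 12 pluripotency genes, and its level did not separate the conditions. Of these 12 genes, 0 rose, 10 fell and 2, SOX2 included, did not pass the test. Their median log2 difference was -1.53, against 0.03 over all tested genes. The summed TPM of the pluripotency genes (a level scaled by transcript length, with a total of 1000000 per library) was 7470 to 7801 in hESCs and 4581 to 4780 in NMP-L cells. GDF3 (-3.72), UTF1 (-3.42) and NANOG (-2.59) fell furthest among them. Over all tested genes, 29.1% rose and 26.7% fell at the same threshold.

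The sequences just before the starts of GBX2 and OTX2 are shown because these are the members whose levels crossed between the conditions. Each run is the 250 bases upstream of a RefSeq start site, read 5′ to 3′ on the gene's own (minus) strand of GRCh38.p14, and capitals mark the CCAAT box, an element common in promoters, searched on both strands as CCAAT.
GBX2, chr2:236168387-236168636: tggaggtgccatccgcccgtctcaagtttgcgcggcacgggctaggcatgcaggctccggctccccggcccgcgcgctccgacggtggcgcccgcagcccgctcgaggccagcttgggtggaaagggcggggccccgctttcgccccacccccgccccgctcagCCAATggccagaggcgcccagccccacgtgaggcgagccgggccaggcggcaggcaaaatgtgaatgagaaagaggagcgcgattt
OTX2, first start, chr14:56810480-56810729: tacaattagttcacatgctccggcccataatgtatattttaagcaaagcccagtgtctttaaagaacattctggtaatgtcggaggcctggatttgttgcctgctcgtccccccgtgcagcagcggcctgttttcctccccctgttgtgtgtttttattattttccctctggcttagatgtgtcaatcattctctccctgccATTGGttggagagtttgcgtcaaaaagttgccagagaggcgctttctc
OTX2, second start, chr14:56805668-56805917: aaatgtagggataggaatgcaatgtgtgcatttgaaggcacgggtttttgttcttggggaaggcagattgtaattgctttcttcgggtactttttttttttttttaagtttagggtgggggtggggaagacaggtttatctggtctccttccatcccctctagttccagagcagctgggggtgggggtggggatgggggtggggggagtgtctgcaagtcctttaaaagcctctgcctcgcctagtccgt

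The GBX2 run is 72.0% G and C, and the OTX2 runs are 47.2% and 50.0%, on either side of the median of 58.0% over 35116 RefSeq promoters of this length. A CCAAT box lies 86 bases before the GBX2 start and 48 bases before the first OTX2 start, and 32.0% of all promoters hold one. Of the 10 members, 8 had an entry, with 11 start sites in all, and SIX3 and EN1 had none. The core letters of a TCF/LEF site, the DNA element through which Wnt signalling acts (searched on both strands as CTTTGAA and also as CTTTGAT, besides the forms CTTTGTA and then CTTTGTT), were in 0 of the 11 runs and in 12.0% of all promoters. The core of an OTX site (TAATCC) was also in 0 of 11, against 5.62% of all promoters, and the homeodomain core TAATTA occurred at 1 start, the second of HESX1, with 2 copies, against 4.35% of promoters. These are matches of letters in one short window and say nothing of binding elsewhere.

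GBX2 rose and OTX2 fell, and the order of the pair reversed between day 0 and day 3. GBX2, the anterior hindbrain factor that is also a caudal epiblast gene, lies at chr2:237073879-237077029 on the minus strand of GRCh37 and has 2 exons. Its counts were 36, 54 and 56 in hESCs and 1168, 853 and 1135 in NMP-L cells, so the lowest NMP-L library lay far above the highest hESC library. In CPM this was 2.48 ± 0.547 (SD, n = 3) against 48.1 ± 6.33, an 18.4-fold rise (95% confidence interval 14.3 to 23.6, log2 fold change 4.20, SE 0.17, adjusted p = 4.4e-09). Among 15517 tested genes, 88 (0.567%) rose at least as far. Its NMP-L spread was set by replicate 2, the lowest of the 3 NMP-L libraries, which was also lowest in the summed TPM of 14 caudal epiblast and NMP genes (135.4, against 174.7 and 183.1 in replicates 1 and 3). The part of that difference between cultures in the GBX2 level was not tested, and without this library the log2 fold change was 4.30.

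OTX2, the founding anterior neural factor of the set, lies at chr14:57266623-57283411 (GRCh37, minus strand, 5 exons). It had 339, 361 and 332 counts in hESCs and 202, 162 and 196 in NMP-L cells. All NMP-L libraries lay below all hESC libraries, at 8.54 ± 0.731 against 17.5 ± 0.698 CPM (SD, n = 3). The fall was 2.16-fold (95% confidence interval 1.82 to 2.57, log2 fold change -1.11, SE 0.11, adjusted p = 8.1e-06), and 7.95% of tested genes fell at least as far. OTX2 transcripts were still counted in every NMP-L library, at 8.19 to 9.34 TPM. The pluripotency genes moved in the same direction with a larger median, and their part in the OTX2 difference was not tested.

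**Figure D1:**
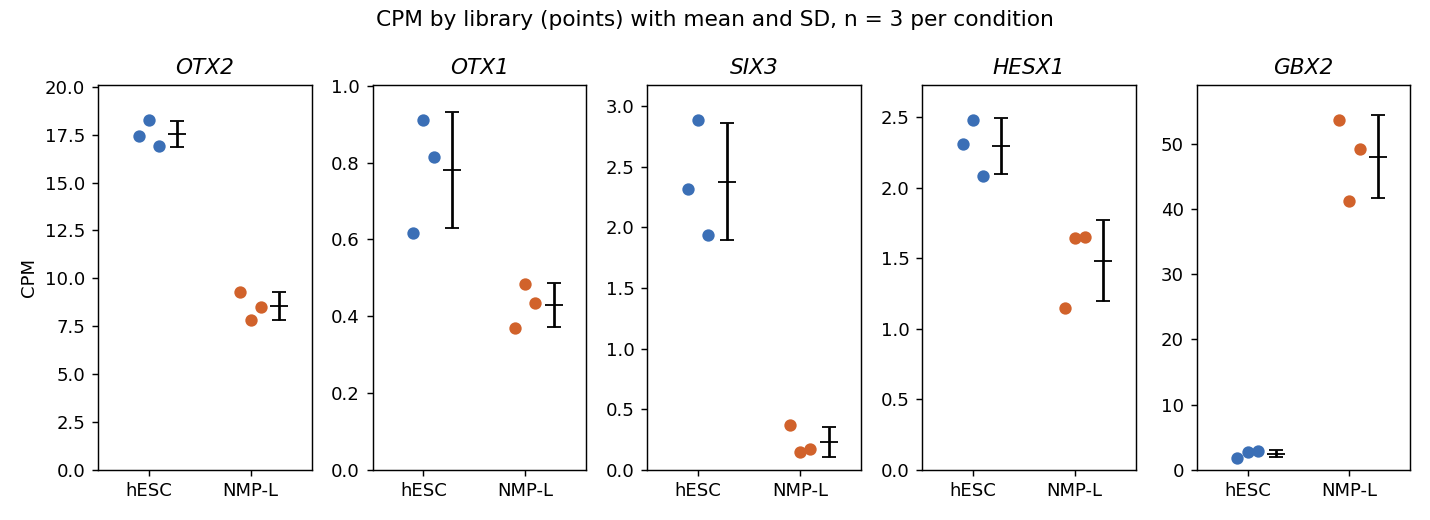
CPM (linear axes starting at 0, a separate scale for each gene) of the 5 members that passed the filter on low counts, with 1 point per library, a short bar for the mean and whiskers for the SD (n = 3). NMP-L points lie below all hESC points for OTX2, OTX1, SIX3 and HESX1 and above them for GBX2.

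Because TPM values are scaled by transcript length, the levels of both genes can be set against each other within a library. In hESCs OTX2 stood at 18.80, 18.22 and 17.47 TPM and GBX2 at 2.33, 3.24 and 3.50 TPM, so OTX2 exceeded GBX2 by 8.07-fold, 5.62-fold and 4.99-fold. In NMP-L cells OTX2 stood at 9.34, 8.19 and 9.22 TPM and GBX2 at 65.64, 50.82 and 63.06 TPM, so GBX2 exceeded OTX2 by 7.03-fold, 6.21-fold and 6.84-fold. The log2 ratio of OTX2 to GBX2 was thus 2.61 ± 0.361 (SD, n = 3) in hESCs and -2.74 ± 0.094 in NMP-L cells, a difference of -5.35 that is many times the spread within either condition. Most of this shift came from GBX2, whose log2 change was 4.20 against -1.11 for OTX2.

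**Figure D2:**
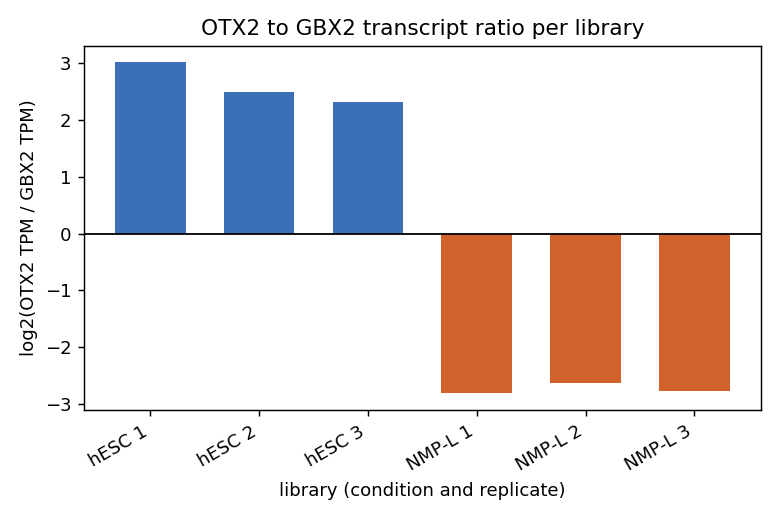
Bars give the log2 ratio of OTX2 to GBX2 TPM in each of the 6 libraries, on an axis with 0 where both genes have the same TPM. The 3 hESC bars stand at 3.01, 2.49 and 2.32 and the 3 NMP-L bars at -2.81, -2.63 and -2.77.

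OTX1, the paralogue of OTX2 with a later and more restricted part in forebrain and midbrain, was low in both conditions. It lies at chr2:63277192-63284971 (GRCh37, plus strand, 5 exons) and had 12, 18 and 16 counts in hESCs and 8, 10 and 10 in NMP-L cells. The libraries did not overlap, at 0.781 ± 0.150 against 0.429 ± 0.0579 CPM (SD, n = 3), a 1.91-fold fall (95% confidence interval 1.16 to 3.15, log2 fold change -0.93, SE 0.33, adjusted p = 0.031), and 10.2% of tested genes fell at least as far. With so few counts the call was not stable. It was lost with DESeq2 (adjusted p = 0.18), without the filter on low counts (0.060), without hESC replicate 2 (0.11) or 3 (0.087), and without NMP-L replicate 1 (0.10) or 3 (0.077).

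The rostral factors SIX3 and HESX1 fell by different amounts from low starting levels. SIX3, a homeobox gene that protects forebrain and eye field identity against Wnt signals, lies at chr2:45168841-45173210 (GRCh37, plus strand, 2 exons). Its counts were 45, 57 and 38 in hESCs and 8, 3 and 4 in NMP-L cells, which leaves the NMP-L libraries close to the floor of 3 counts. In CPM this was 2.38 ± 0.480 against 0.229 ± 0.121 (SD, n = 3), a 10.7-fold fall (95% confidence interval 6.20 to 18.4, log2 fold change -3.42, SE 0.36, adjusted p = 9.6e-06), and 93 of the tested genes (0.599%) fell at least as far. SIX3 and OTX1 passed the filter on low counts through their hESC libraries alone, with 0 of 3 NMP-L libraries at or above 0.495 CPM.

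HESX1, a repressor of the anterior neural plate and pituitary primordium that is also transcribed in pluripotent cells, lies at chr3:57231866-57261634 (GRCh37, minus strand, 4 exons). It had 45, 49 and 41 counts in hESCs and 25, 34 and 38 in NMP-L cells. The gap between the conditions was narrow, 38 counts in the highest NMP-L library against 41 in the lowest hESC library, and 1.65 against 2.09 once scaled to CPM. The fitted fall was 1.63-fold (95% confidence interval 1.15 to 2.30, log2 fold change -0.70, SE 0.23, adjusted p = 0.020), a size that 14.0% of tested genes reached or passed in this direction. This call was lost with DESeq2 (adjusted p = 0.073), without hESC replicate 2 (0.066) and without NMP-L replicate 1 (0.085).

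The remaining rostral member, LHX2, a LIM homeobox gene of the eye field and cortex, was close to absent from the libraries. It had 1, 1 and 0 counts in hESCs and 4, 3 and 3 in NMP-L cells. The libraries did not overlap and the ratio was 4.49, but its counting interval of 0.958 to 42.2 includes equal levels, and the exact two-sided permutation test gave p = 0.1, the smallest that 3 against 3 libraries allow.

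The engrailed and paired-box members that mark the isthmus were at or near the floor in both conditions. EN1 had 0, 0 and 2 counts in hESCs and 0, 1 and 0 in NMP-L cells, and PAX2 had 1, 0 and 1 in both, so no fold can be given for either. EN2, the second engrailed gene, had 2, 0 and 0 counts in hESCs and 0, 0 and 4 in NMP-L cells, a ratio of 1.80 with a counting interval of 0.258 to 19.9. None of the 3 genes was separated by the exact permutation test (p = 1.0 for EN1, 1.0 for EN2 and 0.6 for PAX2), and at this depth changes below the floor were not detectable.

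PAX8, an early marker of the isthmus and of the otic and kidney primordia, was the one member of this group with more than 4 counts in a library. Its counts were 2, 0 and 0 in hESCs and 2, 11 and 7 in NMP-L cells, so that NMP-L replicate 1 was no higher than hESC replicate 1. The ratio was 8.99 with a counting interval of 2.18 to 79.3, and the exact permutation test gave p = 0.2. In an edgeR fit without the filter on low counts its log2 fold change was 2.90 (SE 1.05, adjusted p = 0.034), and with DESeq2, which also tested it, the value was 3.09 and did not pass (adjusted p = 0.080).

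**Figure D3:**
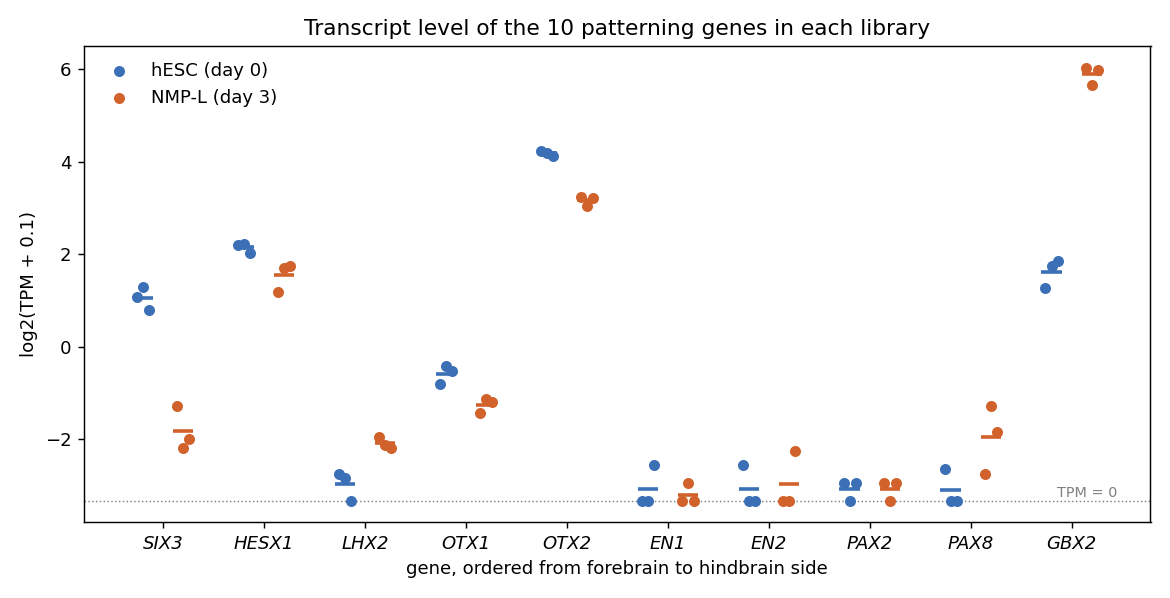
Transcript level of each of the 10 genes on the log2(TPM + 0.1) scale, with 1 point per library, a bar for the mean on that scale, and a dotted line where TPM is 0. GBX2 is the highest gene in NMP-L cells and OTX2 the highest in hESCs, while LHX2, EN1, EN2, PAX2 and PAX8 stay near the dotted line.

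Ordered by TPM, hESCs had OTX2 first at 18.2 ± 0.667 (SD, n = 3), followed by HESX1 at 4.35 ± 0.330, GBX2 at 3.02 ± 0.614, SIX3 at 1.99 ± 0.360 and OTX1 at 0.573 ± 0.0929. GBX2 and SIX3 overlapped between libraries, the other neighbours in this part of the order did not, and the 5 remaining members, all at or below 0.03 TPM on average, could not be ordered. In NMP-L cells GBX2 came first at 59.8 ± 7.92 TPM, higher than 90.2% of the genes in the table, followed by OTX2 at 8.92 ± 0.632 and HESX1 at 2.86 ± 0.595, with no overlap between these. OTX1, SIX3, PAX8 and LHX2 lay between 0.137 and 0.323 TPM on average, each overlapping its neighbour in the order, and EN2, PAX2 and EN1 lay at or below 0.0367.

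Over the whole set, 5 of 10 members passed the filter, of which 1 rose and 4 fell at an adjusted p under 0.05. In the same fit 55.8% of all tested genes were called, 29.1% higher and 26.7% lower in NMP-L cells, so a called member is no rarity here, and since SIX3 and OTX1 entered the test only through the condition in which they were high, the count carries no weight of its own. The libraries of the conditions did not overlap for 6 of 10 members. These were all 5 tested members, against 61.6% of tested genes, and LHX2, which was not among the tested genes. The exact permutation test cannot go below p = 0.1 with 3 libraries a condition and gave that value for all 6.

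Genes that mark the same axial levels were then counted by list. In the same fit 29.1% of all tested genes rose and 26.7% fell, shares to be set beside every list count below. Of 15 further forebrain and eye field genes in the table, 4 passed the filter, of which 2 rose, 1 fell and 1 did not pass the test, with a median log2 fold change of 0.73. With 4 tested genes this median gives no direction for the list. SP8, a zinc finger gene of the telencephalon and other signalling territories, rose from 118, 80 and 133 counts to 300, 248 and 318 (1.15, SE 0.17, adjusted p = 0.00015). SP8 is therefore not particular to the forebrain, and the part of the other territories in its rise was not tested. EMX1, a cortical homeobox gene, rose by less (0.83, SE 0.31, adjusted p = 0.036), a call lost with DESeq2 (0.095), without hESC replicate 2 (0.13) or 3 (0.10) and without NMP-L replicate 2 (0.15). LHX5, a LIM homeobox gene of the diencephalon, fell from 32, 29 and 42 counts to 22, 21 and 17 (-1.00, SE 0.27, adjusted p = 0.0081). Another 8 of the 15 had no more than 3 counts in any library. FEZF1, which like SIX3 is a rostral forebrain factor, had 6, 14 and 17 counts in hESCs and 3, 3 and 4 in NMP-L cells, and its ratio of 0.243 (counting interval 0.108 to 0.498) had the direction of SIX3.

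Of 12 further midbrain and isthmus genes, 5 passed the filter, of which 1 rose, 2 fell and 2 did not pass the test, with a median of -0.03. PAX5, the paired-box relative of PAX2 and PAX8, was well above both, with 63, 63 and 72 counts in hESCs and 104, 121 and 139 in NMP-L cells, and rose (0.65, SE 0.16, adjusted p = 0.0050). The falls were in FGF signalling genes. FGF17, a ligand of the isthmus, fell from 100, 80 and 118 counts to 18, 8 and 21 (-2.89, SE 0.28, adjusted p = 5.4e-06), and SPRY1, a feedback inhibitor of FGF receptors, fell from 339, 301 and 365 to 175, 167 and 178 (-1.18, SE 0.12, adjusted p = 8.4e-06). Of the defining isthmus ligands, WNT1 had 1 count over all 6 libraries. FGF8 was above EN1, EN2 and PAX2 in hESCs, with 4, 11 and 7 counts there against 3, 2 and 1 in NMP-L cells. It did not pass the filter, and in the edgeR fit without that filter its fall was called (-2.02, adjusted p = 0.026). DMBX1, a midbrain homeobox gene of the same paired-like class as OTX2, had 6, 28 and 16 counts in hESCs and 0 in all NMP-L libraries, at least 6.15-fold lower when computed against a floor of 3 counts per library.

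Of 9 hindbrain genes other than GBX2, 2 passed the filter, of which 1 fell and 1 did not pass the test, with a median of -1.28. EGR2, a marker of hindbrain rhombomeres, fell from 50, 43 and 41 counts to 5, 14 and 18 (-2.08, SE 0.34, adjusted p = 0.00033). GBX1, the paralogue of GBX2, had 0, 3 and 3 counts in hESCs and 2, 4 and 2 in NMP-L cells, and its libraries overlapped between the conditions.

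Most genes of the caudal epiblast and NMP list rose. Of 14 in the table, 13 passed the filter, of which 10 rose and 3 fell. The median log2 fold change was 3.19, the value of WNT3A, which was 3.87 without hESC replicate 2. In the same fit 29.1% of all tested genes rose. Of the 10 that rose, 7 (T, CDX1, CDX2, SP5, EVX1, WNT8A and HES7) had 0 of 3 hESC libraries at or above 0.495 CPM. They entered the test only through the condition in which they were high, as FGF4 did among the falls. Neither the count nor the median therefore carries weight of its own. Among the tested genes of the list without these, 3 rose and 2 fell. CDX2, the caudal homeobox factor, had 0, 1 and 0 counts in hESCs and 522, 326 and 607 in NMP-L cells. T followed the counts given above, a ratio of 656 with a counting interval of 181 to 5419. EVX1, a homeobox gene of the primitive streak, was at 0 in all hESC libraries and had 65, 43 and 71 counts in NMP-L cells, at least 17.8-fold higher than the floor of 3 counts per library. Of the 3 that fell, CYP26A1, which degrades retinoic acid, went from 315, 267 and 345 counts to 12, 6 and 3 (-5.67, SE 0.27, adjusted p = 2.0e-08, and -6.29 without NMP-L replicate 1). FGF4, an FGF ligand of the primitive streak and of pluripotent cells, fell by 4.21 (SE 0.26, adjusted p = 1.5e-07), and TBX6, a paraxial mesoderm factor, fell by 1.24 (SE 0.18, adjusted p = 0.00013). FGF8, which the paper places at the tail end of the embryo, was counted with the isthmus genes instead. It had 4, 11 and 7 counts in hESCs and 3, 2 and 1 in NMP-L cells.

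**Figure D4:**
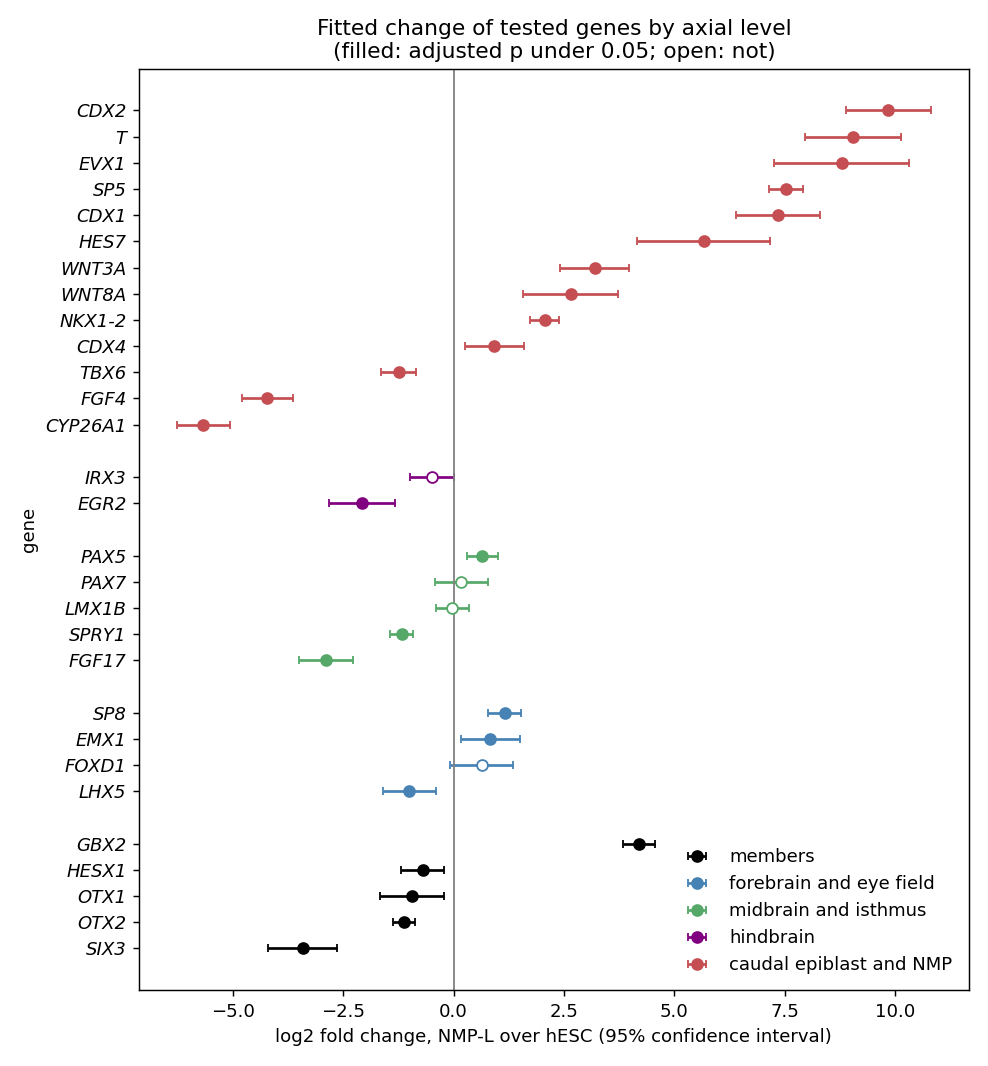
Fitted log2 fold change (NMP-L over hESC) with its 95% confidence interval for every tested gene of the set and of 4 axial lists, filled where the adjusted p was under 0.05 and open otherwise. Caudal genes range from -5.67 (CYP26A1) to 9.84 (CDX2). Forebrain, midbrain and hindbrain genes other than GBX2 rise by less than 1.5, and the largest falls among them are SIX3 (-3.42), FGF17 (-2.89) and EGR2 (-2.08). The points of CDX2, T, EVX1, CDX1, HES7 and WNT8A rest on 0 to 4 counts in each hESC library, so their size depends on the prior count of the fit. That of HES7 moves from 5.66 to 8.45 without hESC replicate 1.

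Since several members are also used outside the neural plate, markers of those tissues were read beside them. For PAX8, 12 genes of intermediate mesoderm and otic placode gave 5 that passed the filter, with 1 rise (EYA1, 0.92, SE 0.22, adjusted p = 0.0037), 1 fall (TBX1, -1.24, SE 0.17, adjusted p = 8.2e-05) and 3 that did not pass the test. Their summed TPM overlapped between hESCs (51.7 to 64.4) and NMP-L cells (58.1 to 68.3). For OTX2 and HESX1, which are also genes of the anterior mesendoderm, 6 of 12 such genes passed the filter, of which 4 rose and 2 fell, with a median of 1.47. FOXA2, a factor of endoderm and axial mesoderm, rose from 0, 5 and 2 counts to 473, 264 and 535 (7.19, SE 0.42, adjusted p = 9.6e-08, with values of 6.62 to 8.32 when 1 hESC replicate was left out, the highest without replicate 2), EOMES had 2, 1 and 0 counts against 46, 48 and 64, and MIXL1 rose by 2.15 (SE 0.21, adjusted p = 6.2e-06). LEFTY2 (-3.28, and -2.68 without NMP-L replicate 3), whose fractional counts show reads split with a related gene, and FRZB (-1.51) fell. FOXA2, EOMES and LEFTY2 passed the filter through the condition in which they were high alone, so neither the count nor the median of this list carries weight of its own. Over all tested genes, 29.1% rose and 26.7% fell. The endoderm genes SOX17 and CER1 had no more than 2 counts in any library. HHEX, another gene of this list, went the other way, from 70, 71 and 71 counts to 157, 118 and 153 (0.78, SE 0.15, adjusted p = 0.00092). The summed TPM of this list was 9.16 to 9.89 in hESCs and 27.6 to 41.4 in NMP-L cells, and its part in the OTX2 and HESX1 values was not tested.

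The position of the members was also examined. Of the 10, 5 (OTX1, SIX3, GBX2, EN1 and PAX8) lie on chromosome 2, and they include both the largest rise and the largest fall. None of the 10 had a fractional expected count, which gives no sign of reads split with another gene of the table. Whether counting used strand is not given in the sources used here, so reads from a member and its antisense transcript may not be separable. OTX2-AS1 (0 counts in hESCs, and 1, 0 and 0 in NMP-L cells), SIX3-AS1 (2, 0 and 0, then 0 in all) and PAX8-AS1 (2, 3 and 4, then 0, 1 and 4) were low. GBX2-AS1 overlaps GBX2 by 969 bp on the opposite strand. It has no entry under that symbol in the expression table, so its level could not be checked. Among neighbouring genes, ASB18, 25.1 kb from GBX2, had 0 counts in all hESC libraries and 6, 0 and 1 in NMP-L cells. WDPCP, 61.7 kb from OTX1, rose (0.95, SE 0.12, adjusted p = 5.3e-05). EHBP1 (-0.10, adjusted p = 0.37), 3.57 kb from OTX1, APPL1 (0.10, adjusted p = 0.61), 0.12 kb from HESX1, IL17RD (-0.10, adjusted p = 0.37), 27.5 kb from HESX1, and DENND1A (0.12, adjusted p = 0.30), 71.5 kb from LHX2, did not pass the test, although the DENND1A libraries did not overlap (NMP-L higher) and it passed with limma on log2(TPM + 0.1) (0.27, adjusted p = 0.035) and on log2(TPM + 1) (0.25, adjusted p = 0.037). The remaining locus of this list, LOC101927780, had at most 1 count in a library.

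The genes with the most similar pattern were found by Euclidean distance between row-centred log2 CPM profiles over the 6 libraries. Nearest to GBX2 were STK32A at 0.328, a serine/threonine kinase gene with 34, 43 and 56 counts in hESCs and 993, 859 and 1170 in NMP-L cells, and WNT5B at 0.333, a Wnt ligand with 20, 32 and 33 counts against 783, 647 and 781. LPAR5 (0.454), a lysophosphatidic acid receptor, and NPAS3 and ATF5, transcription factor genes (both 0.569), followed. Nearest to SIX3 were FAM124B (0.419), ARSE (0.584), ALPP (0.597), CLIP3 (0.613) and MUC4 (0.633). These profiles rest mostly on the single contrast between 2 conditions, and ALPP has fractional counts, which shows reads shared with related alkaline phosphatase genes.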

How the data were processed

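RNA-seq of polyadenylated RNA from 3 hESC and 3 NMP-L replicates was used, grouped by the labels, which call them biological replicates of 1 cell line. The table that the authors deposited holds, for each gene, expected counts from RSEM and TPM values scaled by RSEM for transcript length. The submitters' processing notes name cutadapt 1.9.1, STAR 2.5.2a, RSEM 1.3.0, DESeq2 1.12.3 and hg19, and the annotation and settings are not given in the sources used here. TPM and gene choice by symbol depend on that annotation. All columns were used (0 left out).

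Expected counts were rounded and fitted over all genes with edgeR 4.0.16 in R 4.3.3 (TMM scaling, filterByExpr with a minimum count of 10, glmQLFit and glmQLFTest, Benjamini-Hochberg adjustment over 15517 genes, threshold 0.05). SE is the log2 fold change divided by the square root of F. CPM was computed on library totals. Counting ratios carry exact Clopper-Pearson 95% intervals that cover counting error only. Exact two-sided permutation tests used log2(CPM + 0.1). Alternatives used DESeq2 1.42.0, and limma 3.58.1 on log2(TPM + pseudocount). P-values judge the difference between the conditions against the spread between replicate cultures of 1 cell line.

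Members and gene lists were chosen with earlier results of these data known. Named genes are all members, up to 3 largest rises and 3 largest falls past the threshold in each list, antisense and neighbouring genes, and the 5 genes nearest in pattern (prior count 2). FEZF1, DMBX1, GBX1, WNT1, FGF8, SOX2, SOX17, CER1 and HHEX were added after their values were seen. Gene positions are from GENCODE v44 on GRCh37, and upstream sequences from RefSeq on GRCh38.p14. Some hindbrain genes are not reported here.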

Additional observations from a re-analysis of the deposited data

How the results depend on the processing

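Of the 5 member calls, those of OTX2, SIX3 and GBX2 held under every alternative that tested them, with log2 fold changes of -1.17 to -0.95, -3.91 to -1.32 and 3.92 to 4.30. The weakest SIX3 value, and the weakest for OTX1 (-0.25), came from log2(TPM + 1), a scale that shrinks low genes. The number of members called was 3 with DESeq2 and 3 when at least 10 counts were required in every library, which leaves SIX3 and OTX1 untested, and 3 to 5 when 1 replicate was left out (3 without hESC replicate 2 or NMP-L replicate 1). Without the filter on low counts the calls were 5 forebrain genes (adding FEZF1 and PAX6), 5 midbrain genes (adding DMBX1 and FGF8) and 4 intermediate mesoderm and otic genes, which were also 4 with DESeq2 and 4 without NMP-L replicate 2. Requiring at least 10 counts in every library left 3 caudal and 3 anterior mesendoderm calls and 0 hindbrain calls (1 at an unadjusted p under 0.05 by edgeR), since fewer genes were tested. Leaving out 1 replicate gave 2 to 4 forebrain, 3 to 4 midbrain, 1 to 2 hindbrain (2 without NMP-L replicate 2), 12 to 13 caudal, 2 to 4 intermediate mesoderm and otic, 6 to 7 anterior mesendoderm and 10 to 11 pluripotency calls, 7255 to 8891 calls over all genes (8653 with all libraries), and an OTX2 to GBX2 log2 ratio difference of -5.49 to -5.15. The alternatives for the intermediate mesoderm, mesendoderm and pluripotency lists were added after the data were seen. The direction reversed for APPL1 without hESC replicate 2 and for SOX2 without NMP-L replicate 3, both uncalled, with ranges of -0.049 to 0.255 and -0.001 to 0.119 when 1 replicate was left out. Libraries with the same replicate number showed no positive correlation of their deviations from the condition means (-0.366, -0.0579 and -0.133). This does not settle whether cultures with the same number were paired. With a replicate block 4 members, 2 forebrain genes and 7560 genes in all were called by edgeR, with OTX1 at adjusted p = 0.059 and EMX1 at 0.062.

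Depth limits LHX2, EN1, EN2, PAX2 and PAX8 most, where 3 counts were at most 0.154 CPM, and the 3 libraries per condition limit every exact test.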
